A study of Mus musculus with 2 samples.

Results

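The genes described here are 10 genes of bile duct and renal tubule epithelium and of polycystic disease: Pkhd1, Pkd1, Pkd2, Bicc1, Glis3, Aqp1, Cd24a, Anxa4, Grhl2 and Klf5. Their values are all the probe sets that the platform annotation assigns to one of these genes and to no other gene. That gave 20 probe sets of 45037 on the array and 9 genes of 18193 with a probe set of their own. Pkd2 was left without a probe set and was not analysed here. The samples were livers of E14.5 mouse embryos of the strain NMRI/C57Bl6, 1 array for a wild-type sample and 1 for a Prox1 conditional knockout. The knockout has the genotype Prox1 f/f;Foxa3Cre: Cre driven by Foxa3, a gene of gut and liver endoderm, recombines the floxed gene of the homeodomain factor Prox1. Floxed animals without Cre and Cre carriers without the floxed allele were not analysed here, and the labels give no number of embryos per RNA. With 1 array per genotype there was no replicate error and no test, so each difference is a difference between these 2 samples.

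Bile ducts and renal tubules are epithelial tubes whose cells carry a primary cilium, a sensory projection into the lumen. Polycystin-1 and polycystin-2, the products of Pkd1 and Pkd2, form a receptor and channel complex there, and fibrocystin, the product of Pkhd1, lies in the same membrane. When these proteins are lost, tubes widen into cysts in kidney and liver. In fetal liver the ducts arise from hepatoblasts next to the portal vein, so duct cells are a small part of a tissue made mostly of blood-forming cells and hepatoblasts.

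The duct and cyst genes had no common direction. Bicc1 was higher in the knockout on each of its probe sets, by 1.46-fold to 2.28-fold, and Aqp1 was 1.37-fold higher. Anxa4 was lower on each of its probe sets, by 1.42-fold to 1.82-fold. Cd24a was bright and nearly equal, Klf5 and Grhl2 were close to background, and Pkhd1, Pkd1 and Glis3 were below it on both arrays. Each gene was represented by its probe set of highest mean log2 signal, and the background floor was a signal of 112.6, the higher of the arrays' medians. A gene counted as measured if this probe set exceeded the floor on at least 1 array. By this rule 6 members were measured, and 0 of them reached 2-fold in either direction. Of all 11397 measured genes, 3.27% reached 2-fold on the higher side in the knockout and 2.13% on the lower side. At 1.5-fold the members had 1 lower gene, Anxa4, and 0 higher genes, against 5.21% and 9.87% of all measured genes. Above 0 lay 3 members and below 0 the other 3, with a median log2 difference (knockout minus wild type) of 0.17, against 0.03 over all measured genes. One of the 3 above 0, Grhl2, was measured through the knockout array alone, which fixes its sign. The 5 members measured on both arrays had 2 above 0 and a median of -0.11, against 0.01 over all genes measured on both.

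**Figure D1:**
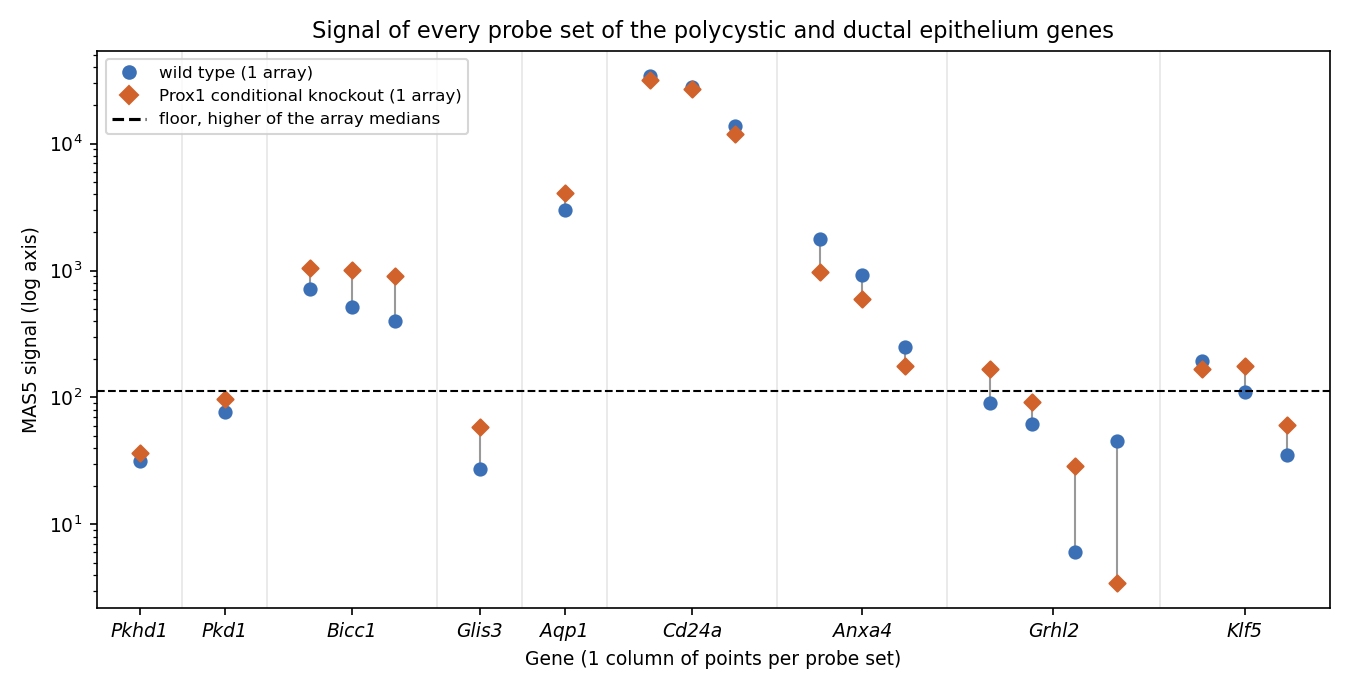
MAS5 signal on a log axis of all 20 probe sets of the 9 genes with a probe set, as blue circles for the wild-type array and orange diamonds for the knockout array, with the floor of 112.6 as a dashed line. Orange lies above blue for all 3 Bicc1 probe sets and below blue for all 3 Anxa4 probe sets, and the probe sets of Pkhd1, Pkd1 and Glis3 lie under the floor on both arrays.

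Of the cyst disease genes, Pkhd1 and Pkd1 gave no usable level. The only Pkhd1 probe set gave 31.5 for wild type and 36.6 for the knockout. These are 0.28 and 0.33 times the floor. The only Pkd1 probe set read 76.7 and 97.5, or 0.68 and 0.87 times the floor. Glis3, a zinc finger transcription factor whose loss causes cystic kidneys and diabetes, read 27.2 and 58.5 on its only probe set. All 3 genes read higher on the knockout array, but no fold is given, because both values of each are below the floor. In all, 7 member probe sets stayed under the floor on both arrays, 6 of them higher in the knockout before the floor was applied. Dim probe sets leaned the same way over the whole array, where 56.8% of the 21380 probe sets below the floor on both arrays read higher in the knockout.

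The promoter of Pkhd1 is shown because it alone among the member promoters holds the motif of HNF1 factors, homeodomain proteins known to regulate Pkhd1 in kidney. RefSeq promoters of the build GRCm38.p6 were found for 6 of the 10 members, with 7 starts in all. Each line below gives the 250 bases before a start, 5′ to 3′ on the gene's strand, with motif matches in capitals. The motifs searched on both strands were GTTAATNAT for HNF1 factors, AACCGGTT for grainyhead factors, AGATAA for GATA factors and GGGCGG for the GC box, and no match overlapped another. Pkhd1 lies on the minus strand and its window is chr1:20618058-20618307. Aqp1 is on the plus strand at chr6:55336049-55336298. Anxa4, on the minus strand, has one start with the window chr6:86793585-86793834 and a downstream start with the window chr6:86775115-86775364. Aqp1 and Anxa4 are shown as the measured members with a promoter that differed in opposite directions.
Pkhd1: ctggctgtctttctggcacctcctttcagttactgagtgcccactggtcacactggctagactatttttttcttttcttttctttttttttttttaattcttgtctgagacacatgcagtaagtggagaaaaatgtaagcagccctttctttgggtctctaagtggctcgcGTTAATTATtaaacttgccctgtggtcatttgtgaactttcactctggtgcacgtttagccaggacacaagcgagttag
Aqp1: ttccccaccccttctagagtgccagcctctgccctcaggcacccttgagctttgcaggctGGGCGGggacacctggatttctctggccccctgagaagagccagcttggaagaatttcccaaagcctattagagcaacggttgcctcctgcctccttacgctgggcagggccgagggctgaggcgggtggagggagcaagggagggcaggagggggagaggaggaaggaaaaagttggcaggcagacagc
Anxa4, upstream start: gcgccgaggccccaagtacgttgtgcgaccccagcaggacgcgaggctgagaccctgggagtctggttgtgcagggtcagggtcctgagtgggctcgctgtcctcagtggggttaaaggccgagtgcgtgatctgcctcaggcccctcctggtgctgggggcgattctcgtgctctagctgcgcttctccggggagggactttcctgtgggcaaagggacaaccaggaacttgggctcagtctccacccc
Anxa4, downstream start: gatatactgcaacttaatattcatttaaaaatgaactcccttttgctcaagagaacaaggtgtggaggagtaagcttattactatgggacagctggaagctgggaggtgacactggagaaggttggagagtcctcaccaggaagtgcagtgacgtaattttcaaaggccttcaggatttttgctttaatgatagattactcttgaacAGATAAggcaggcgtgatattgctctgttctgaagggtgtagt

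The HNF1 match of Pkhd1 begins 79 bases before the start, and the motif was present in 242 of 32851 windows of this length, or 0.74%. Aqp1 has a GC box 190 bases before its start, a motif held by 32.7% of windows. The downstream start of Anxa4 has a GATA match 43 bases before it, a motif held by 9.99% of windows, and its upstream window has none of the motifs. Those Anxa4 windows also differ in composition, with a GC content of 64.8% and 13 CpG dinucleotides upstream against 42.0% and 2 downstream, where the median window had 52.4% and 6. The grainyhead motif, present in 0.12% of windows, was in none of the 7 member windows. Among members not printed, Pkd1 had 4 GC boxes and Glis3 had 3, while Pkd2 had no match. The matches describe letters in these windows only, and the arrays do not tell which Anxa4 start was used.

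Bicc1 encodes an RNA-binding protein with KH domains whose loss causes cystic kidneys in mice. The wild-type array gave 715.6 and the knockout array 1043 on its brightest probe set, 1423484_at. The next, 1436029_at, gave 517.1 and 1007. The third, 1441137_at, read 397.7 and 907.4. The knockout signal was the higher one each time, and all 6 values were at least 3.53 times the floor. The log2 differences were 0.54, 0.96 and 1.19. Only the last passed 2-fold, the sole member probe set of 13 measured to do so, where 2.57% of all measured probe sets were that far on the higher side. On the lower side it was 0 member probe sets and 1.7% of all. The size thus rests on the probe set: the median of the 3 gives a Bicc1 difference of 1.95-fold, and the brightest gives 1.46-fold. Among all measured genes, 11.2% had a larger log2 difference than the brightest Bicc1 probe set and 1.99% had one larger than the dimmest.

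How far several probe sets of a gene differ gives a partial measure of spread within this pair of arrays, since they read the same RNA samples. It leaves out errors shared by all probe sets of an array, and it can include differences between transcripts of a gene. Among 1158 genes with exactly 3 probe sets above the floor on both arrays, the log2 differences of a gene spanned 0.37 in the median and 0.59 at the 75th percentile. Bicc1 spanned 0.65, Anxa4 0.36 and Cd24a 0.15. All 3 probe sets were at 0.5 or higher on the log2 scale in 25 of these genes (2.16%), Bicc1 among them. All 3 were at -0.5 or lower in 9 (0.78%), Anxa4 among them. The mark of 0.5 was chosen after these values were seen, and probe sets of a gene are not replicates of a genotype.

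**Figure D2:**
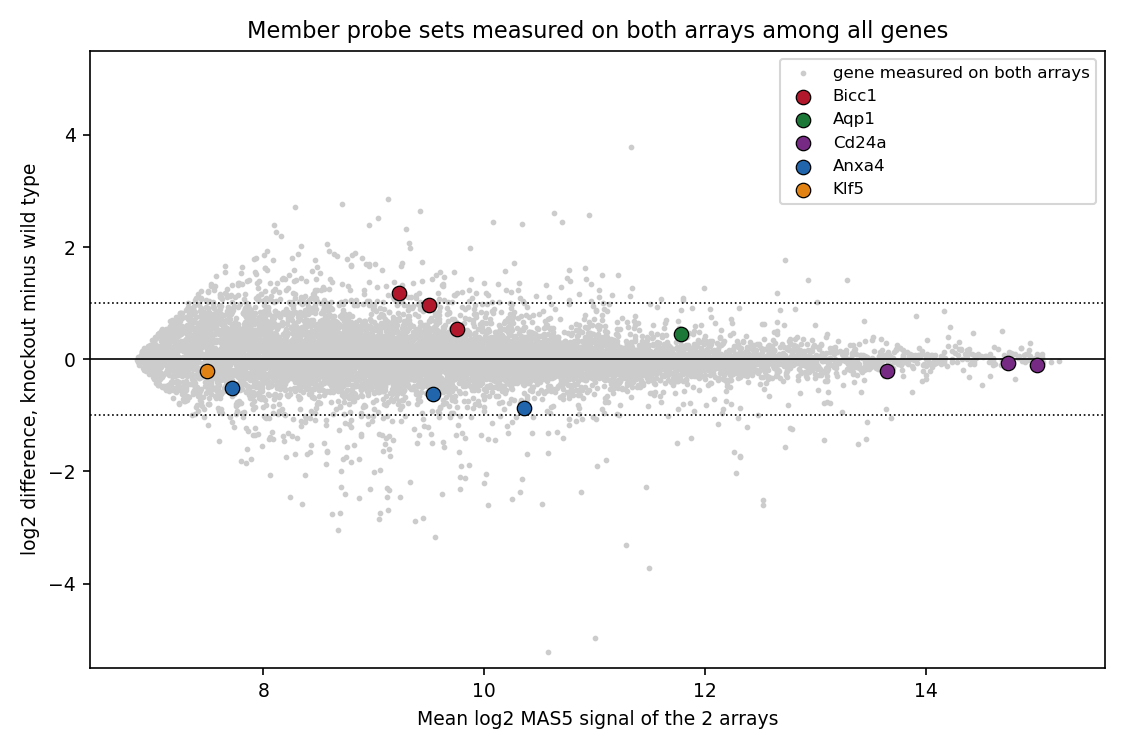
Log2 difference, knockout minus wild type, against the mean log2 signal for all genes measured on both arrays (grey) and for the 11 member probe sets measured on both (coloured by gene), with dotted lines at 2-fold. Bicc1 lies at 0.54 to 1.19, Aqp1 at 0.45, Anxa4 at -0.87 to -0.51, and Cd24a at the bright end close to 0, where the cloud of genes is narrow.

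Anxa4 encodes annexin A4, which binds phospholipids in the presence of calcium and is abundant near the apical membrane of duct and tubule cells. On its brightest probe set, 1421223_a_at, the wild-type signal was 1769 and the knockout signal 971.0. The second, 1424176_a_at, read 919.2 and 601.4. The third, 1457658_x_at, whose suffix marks probes that may also match other sequences, read 250.4 and 176.4. The knockout value was the lower one on every probe set, and the third lay nearest the floor at 1.57 times its level in the knockout. The log2 differences were -0.87, -0.61 and -0.51. By brightest probe set Anxa4 was the measured member farthest from 0, whereas by the median over probe sets it was Bicc1 (0.96 against -0.61 for Anxa4). Lower than the brightest Anxa4 probe set were 2.71% of measured genes. For genes of its signal, between 1000 and 5000, the robust SD of the log2 difference over genes was 0.23 and the middle 95% ran from -0.70 to 0.75. The other Anxa4 probe sets lay inside the middle 95% of genes of their signal. This range was -1.01 to 1.12 for signals of 250 to 1000, beside -0.61. Below 250 it was -0.79 to 1.10, beside -0.51. The Bicc1 probe sets all had a mean signal between 250 and 1000. Their differences of 0.54 and 0.96 lay inside the range for that signal, and 1.19 lay above it.

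Most other annexins lay on the other side of 0. Of 8 measured annexins besides Anxa4, 6 were above 0 (7 under quantile normalization and under lowess correction), 0 were 2-fold apart and the median was 0.39. Anxa1 (1592 in wild type and 2954 in the knockout, 1.86-fold higher) and Anxa3 (750.1 and 1341, 1.79-fold higher) are annexins that granulocytes also express. Anxa13, an annexin of gut and kidney epithelium, read 141.5 and 239.3.

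Aqp1 encodes a water channel of duct cells, proximal tubule, endothelium and red cells. Its single probe set, 1416203_at, gave a wild-type signal of 3005 and a knockout signal of 4107. The log2 difference was 0.45, and 14.8% of measured genes had a larger one. Beside it, the 12 endothelial markers were all measured and, by brightest probe set, all above 0 (11 of 12 after quantile normalization or lowess correction). Of these, 11 were measured on both arrays, and the list had a median of 0.37 and a summed signal of 5664 and 6803. Tek (0.04) and Lyve1 (0.03) were near 0. Egfl7 was above 0 on its brightest probe set (0.18) and below 0 on its others (-0.24, -0.10 and -0.28). The 11 measured erythroid markers of 15 listed had a median of -0.006, with 5 above 0, and a summed signal of 110713 and 111120. Whether endothelial cells had a part in the Aqp1 difference was not tested. In whole liver, fewer cells of a type and less RNA per cell cannot be told apart. Of the other aquaporins, 5 of 10 were measured, 2 above 0 and 3 below. The glycerol and water channels Aqp3 (579.9 and 428.3) and Aqp9 (542.6 and 655.6), the latter a hepatocyte gene, and Aqp11 (446.7 and 334.6), whose loss also causes cystic kidneys, were the farthest from 0 by brightest probe set, with log2 differences of -0.44, 0.27 and -0.42. Other probe sets measured on both arrays reached -0.50 for Aqp3 and -0.51 for Aqp11.

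Cd24a encodes a small glycolipid-anchored surface protein of progenitor and duct epithelium that is also carried by red cell precursors, granulocytes and B cells. Its probe sets read 34077 and 31570 (1448182_a_at), 27847 and 26714 (1416034_at), and 13766 and 11871 (1437502_x_at) in wild type and knockout. All 3 were slightly lower in the knockout, with log2 differences of -0.11, -0.06 and -0.21. The upper pair lies above a signal of 20000, near the top of the scale, where differences can be compressed. Of 92 genes above that level on an array, 0 were 2-fold apart, and the largest absolute log2 difference was 0.86. Genes above a signal of 5000 had a robust SD of only 0.15, so this count does not show compression. The granulocyte markers, which were all measured, were above 0 in 10 of 10, with a median of 1.09 and a summed signal of 34613 and 72339. Of 8 listed B cell markers 3 were measured, 1 of them on both arrays, with a median of 0.38 (0.14 under quantile normalization), and the defining genes Cd79a and Vpreb1 were below the floor on both arrays. The part of these cells in the Cd24a signal was not tested.

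Grhl2 and Klf5 are epithelial transcription factors. Grhl2, a grainyhead factor that keeps up tight junction genes in duct cells, was above the floor on 1 probe set of 4, on the knockout array only. Its signal on 1431877_a_at was 90.8 for wild type and 166.4 for the knockout, so Grhl2 was at least 1.48-fold higher, a log2 bound of 0.56. The others stayed under the floor and did not share a direction. In the same order they read 61.8 and 92.3, 6.10 and 28.6, and 45.6 and 3.48. A probe set at 1.48 times the floor with disagreeing companions gives a weak reading.

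Klf5, a Kruppel-like factor of gut and duct epithelium, had probe sets on either side. The brightest, 1451021_a_at, had a log2 difference of -0.21, from a wild-type signal of 193.2 to a knockout signal of 167.2. The next, 1451739_at, read 109.8 and 177.7, at least 1.58-fold higher. The third was below the floor at 34.9 and 60.6. For genes below a signal of 250 the robust SD of the log2 difference was 0.46, wider than the Klf5 difference, and no direction can be given for Klf5. Of 14 measured Kruppel-like factors besides Klf5, 10 were above 0 and 2 passed 2-fold on the lower side. Klf12, a repressor, went from 1053 to 267.2 on its brightest probe set (3.94-fold lower), with log2 differences of -0.48 and -0.77 on its other measured probe sets. Klf15, a metabolic factor of hepatocytes and kidney, went from 406.5 to below the floor at 41.9 and was at least 3.61-fold lower.

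Other cyst disease and ciliary transport genes had medians close to 0, with few genes 2-fold apart. Of 30 further polycystic and nephronophthisis disease genes, 21 were measured, 12 above 0 and 9 below. None (0) reached 2-fold on the higher side and 1 did on the lower side, Cep290, a gate protein at the base of the cilium, which went from 323.2 to 158.0 on its single probe set, 2.05-fold lower. B9d1 (122.5 and 223.3) was 1.82-fold higher. The median of these disease genes was 0.04, and it turned to -0.018 under lowess correction and -0.045 under quantile normalization. Of 36 ciliary transport genes, 32 were measured and 0 were 2-fold apart, with a median of 0.06 (-0.050 under quantile normalization). Tulp3, which carries membrane receptors into the cilium, was 1.81-fold higher. Pkd2l2 and Pkhd1l1, relatives of Pkd2 and Pkhd1, were the measured genes of the wider polycystin and fibrocystin family and read 355.6 and 284.6, and 169.1 and 180.3. The Gli and Glis factors other than Glis3, which act downstream of ciliary Hedgehog signalling or resemble its factors, had 4 of 5 measured and 0 of them 2-fold apart. Of these, 3 were measured in the knockout alone, which fixes their sign, and Glis2 on both arrays. Glis2, a nephronophthisis gene, was higher by 1.52-fold on the brighter of its probe sets and lower on the other, with a log2 difference of -0.38.

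**Figure D3:**
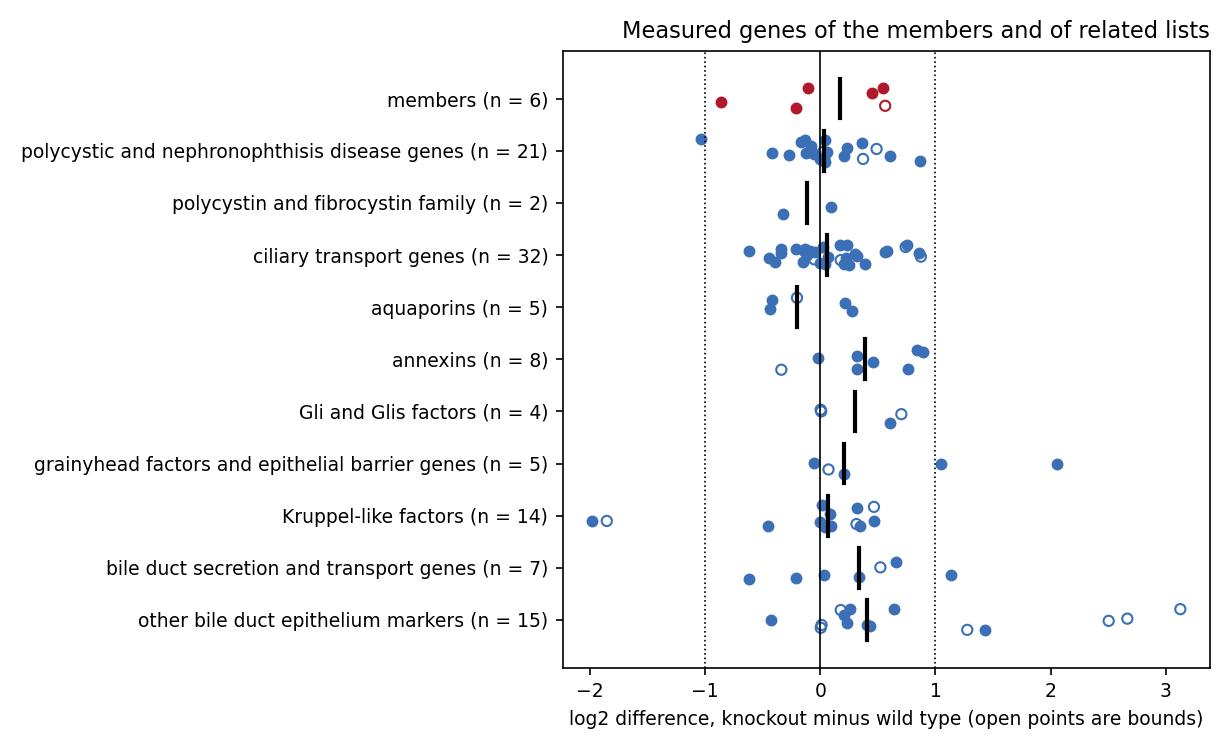
Log2 difference, knockout minus wild type, of each measured gene of the members (red) and of related lists (blue); open points are bounds, black bars are medians and dotted lines mark 2-fold. The members, cyst disease and ciliary transport genes centre near 0 (medians 0.17, 0.04 and 0.06), and 4 of the 5 other bile duct markers past 2-fold on the higher side are open points, measured in the knockout alone.

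Epithelial genes outside the members reached larger differences. Of 15 measured bile duct markers, 7 were above the floor in the knockout alone, so the filter fixed their direction, and 4 of these had bounds past 2-fold. The 4 were Krt19 (70.5 and 982.4, at least 8.72-fold higher), Cldn7, Cldn6 and Epcam (at least 2.42-fold higher). The other markers measured in the knockout alone, Sox9, Krt7 and Tesc, read 127.4, 113.5 and 113.0 there, close to the floor. Of the remaining 8 markers, measured on both arrays, 7 lay above 0, with a median of 0.33. Of these, 1 passed 2-fold on the higher side, Sox4 (1181 and 3176 on its brightest probe set, 2.69-fold). Among all 11397 measured genes, 812 were above the floor in the knockout alone and 364 in wild type alone. The floor is the median of the knockout array, and the wild-type median was lower, at 101.1. The tight junction claudin Cldn7 went from 47.6, below the floor, to 714.2 and was at least 6.34-fold higher, and Cldn6 was at least 5.67-fold higher. Cldn4 (35.7 and 45.4) and the brightest Cldn3 probe set (55.4 and 62.7) were below the floor on both arrays. Dimmer Cldn3 probe sets passed it in the knockout alone. Whether any claudin reading is tied to Grhl2 was not tested. Among the grainyhead factors and epithelial barrier genes, 5 of 15 were measured, 4 of them on both arrays, and 2 passed 2-fold: the membrane serine protease Prss8 (187.0 and 778.2, 4.16-fold) and the protease inhibitor Spint2 (551.6 and 1141, 2.07-fold). Of 16 bile duct secretion and transport genes, 7 were measured and 1 was 2-fold higher, the bicarbonate cotransporter Slc4a4 (167.0 and 366.2, 2.19-fold). The median there was 0.34 (0.19 over the 6 measured on both arrays), with 5 genes above 0 and 2 below. Slc4a2, the anion exchanger of duct cells, was 1.58-fold higher, and Ano1 (240.5 and 156.8) was 1.53-fold lower.

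The tissue was liver by its markers: 9 of 10 hepatoblast and hepatocyte markers were measured. Their median was -0.35, 2 passed 2-fold on the lower side, and the summed signal was 175463 in wild type and 149311 in the knockout. That sum includes Afp, Ttr, Alb and Apoa1, which read above 20000 on both arrays, where differences can be compressed. Of 8 kidney tubule markers 1 was measured, Cdh16, at the floor in the knockout (119.0), and Umod, Slc12a1 and Slc34a1 were below the floor on both arrays. Hepatic mesenchyme markers had 12 of 12 measured, a median of 1.31 and 7 genes past 2-fold on the higher side, with a summed signal of 15325 and 32293. This difference in mesenchymal and granulocyte markers lies beside the higher Bicc1 and Aqp1 readings, and its part in them was not tested. Mesothelial markers (6 of 8 measured) had a median of 0.43, or 0.27 over the 4 measured on both arrays. Of these, 1 passed 2-fold on the higher side, Tcf21 (427.5 and 1127, 2.64-fold). The median was 0.54 for pancreatic markers (2 of 8 measured). Gut and stomach markers had 4 of 8 measured and a median of -0.47, or -0.73 over the 2 measured on both arrays. Among them 3 lay below 0, and 1, Vil1 (20.6 and 259.6), was at least 2.30-fold higher, measured in the knockout alone. Prox1 itself read 340.3 and 221.8 on its brightest probe set, and its others went from 205.9 to 111.8 and from 175.4 to 66.7, both under the floor. The X-linked RNA Xist read 11467 and 365.7 and the Y-linked gene Eif2s3y 0.87 and 1972, a difference in sex-linked RNA that lies beside every value above and whose part was not tested.

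**Figure D4:**
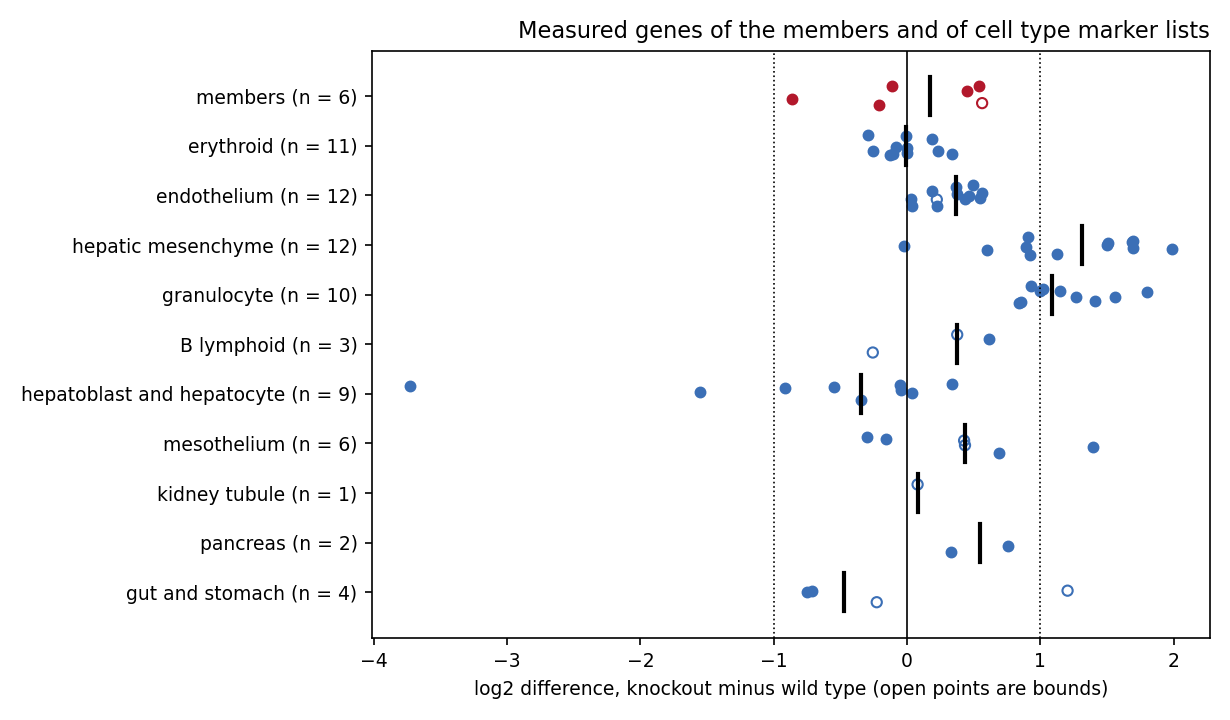
Log2 difference, knockout minus wild type, of each measured gene of the members (red) and of the cell type marker lists (blue); open points are bounds, black bars are medians and dotted lines mark 2-fold. Hepatic mesenchyme and granulocyte markers have medians of 1.31 and 1.09, erythroid markers lie close to 0, and the members run from -0.87 to 0.56.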

How the data were processed

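The value table deposited by the authors holds intensity values, MAS5 signals per the labels' processing notes, with 1 linear value per probe set and array. The 2% trimmed mean was 500.0 on both arrays, so the common scaling was kept. Biotin-labelled cRNA was made from Trizol-extracted total RNA by the Affymetrix one-cycle assay, per the labels' protocols. The version of MAS5 is not given in these sources, and no detection call was used. All columns belonged to a sample.

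The 64 control probe sets were left out. The platform annotation gave 1 symbol to 34945 probe sets, several to 932 and none to 9160. Of the first, 34741 matched the RefSeq table of GRCm38.p6 by gene identifier, which changed 0 symbols. Signals below 112.6, the higher of the arrays' 50th percentiles, were raised to it before taking log2, so a gene above it on 1 array alone is given as a bound, "at least N-fold". MAS5 subtracts mismatch signal, so dim values scatter widely. The number of arrays, 1 per genotype, limits the precision, and no p-value is given. Genes were counted at 2-fold. Medians were set beside those of all measured genes.

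The members and the gene lists were chosen with earlier results of these data known. Named genes were all members and up to 3 genes per list with the largest absolute difference, with Prox1, Xist and Eif2s3y. Other named genes are given as checks of low readings, as limits or to complete a count, and came from the gene lists. They are Cd79a, Vpreb1, Umod, Slc12a1, Slc34a1, Cldn3, Cldn4, Egfl7, Tek, Lyve1, Sox4, Epcam, Sox9, Krt7, Tesc, Afp, Ttr, Alb and Apoa1. Alternatives were other floors, no floor, the median over probe sets, quantile normalization, lowess correction and other size marks. The counting was tested on simulated arrays. Arrays were handled with pandas 2.3.3 and numpy 2.4.6 in Python 3.11.15, lowess came from statsmodels 0.14.6, trimmed means from scipy 1.17.1 and plots from matplotlib 3.10.9.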

Additional observations from a re-analysis of the deposited data

How the results depend on the processing

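No paired analysis was possible because each genotype has 1 array and no result comes from a test. The number of members at least 2-fold higher stayed at 0 at either other floor (30th and 60th percentile), with genes as the median of their probe sets, under quantile normalization, under lowess correction and at 1.5-fold and 3-fold. It was 1 with no floor and no filter, where Glis3 (a log2 difference of 1.11 between readings below the floor) passed with 13.0% of all genes. The number at least 2-fold lower was 0 in these settings and with no floor, except at 1.5-fold, where it was 1 (Anxa4), beside 5.21% of all genes. The members' median log2 difference of 0.17 was 0.38 at the lower floor, -0.021 at the higher one, 0.35 with no floor and 0 with genes as the median of their probe sets, so it has no settled direction. Bicc1 (0.54 to 0.96), Aqp1 (0.45 to 0.48), Cd24a (-0.17 to -0.11) and Anxa4 (-0.87 to -0.61) kept their direction in all 6 alternatives to floor, probe set and scaling. Most of these could not turn a direction. The floor settings left the values of these genes unchanged. Aqp1 has 1 probe set, and the probe sets of Bicc1, Cd24a and Anxa4 each share a sign. Only quantile normalization and lowess correction could have turned them. Grhl2 was no longer measured at the higher floor and was at 0 as the median of its probe sets, as was Klf5.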
